A study of Rattus norvegicus and Ovis aries with 113 samples.

Results

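Among the 15 rat sperm libraries of a study of brain and reproductive tissue in rats and sheep (113 libraries in all), the 5 with the most RNA of late male germ cells were set against the 5 with the least. Each library was scored by the mean of log2(CPM + 1) of Prm1, Tnp1, Tnp2 and Odf1, where CPM is counts per 1000000 of the plain library total. The 10 libraries were therefore chosen by values measured in these same data, and every sperm value below describes that choice and is given without a test. All rats of both groups were post-pubertal male Sprague Dawley rats with no specific treatment, from which seminal fluid and whole brain were taken after death. The labels name no genotype, age in weeks or treatment that differs between single rats. Whether the groups differed in genotype or age is therefore not known. The labels also do not say how sperm were collected from the fluid, and nothing in them says whether any animals were pooled. In RNA of a mixed sample, fewer cells of a type and less RNA per cell cannot be told apart.

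Male germ cells pass from spermatogonia through meiosis to haploid spermatids, which build the acrosome and the tail and then exchange histones for transition proteins (Tnp1 and Tnp2) and finally protamines (Prm1 and Prm2). Transcription stops as the nucleus is compacted, so late spermatids store messages and translate them later, and mature sperm keep only remnants. Odf1 is a structural protein of the outer dense fibres of the tail. Fluid from the male tract also holds RNA of the epithelium of the epididymis and vas deferens, of blood and of other somatic cells.

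The germ-cell-rich libraries came from rats 14, 7, 3, 13 and 10, with scores of 12.22, 12.15, 10.72, 8.62 and 7.54. The germ-cell-poor libraries came from rats 8, 12, 5, 11 and 6, with scores of 5.26, 3.98, 3.92, 3.74 and 3.20. Just outside the rich group lay rat 4 at 6.48, and just outside the poor group rat 15 at 5.70. Scores were therefore graded and not split into separate classes. Measured in the same way, the score was 0.01 to 0.21 in the 15 male brains and 0.01 to 0.05 in the 14 ovaries, below every poor library. This covers the 4 scoring genes only. The gene lists given below went either way in mean log2(CPM + 1). The poor libraries were below male brain for nuclear condensation (0.69 against 1.24) and above it for the sperm tail (2.08 against 1.57).

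The 4 scoring genes did not fall in step. Tnp1 was at 4776, 3461, 1069 and 365 CPM in rats 14, 7, 3 and 13 and at 7.53 CPM in rat 10, while Odf1 was at 4743, 4394, 1997, 560 and 3752 CPM in the same order. Rat 10 thus had more Odf1 than rats 3 and 13 and less Tnp1 than rats 4, 9 and 16 of the libraries between the groups. In the poor group Tnp1 stood at 0.233 to 1.75 CPM and Odf1 at 144 to 605 CPM.

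**Figure D1:**
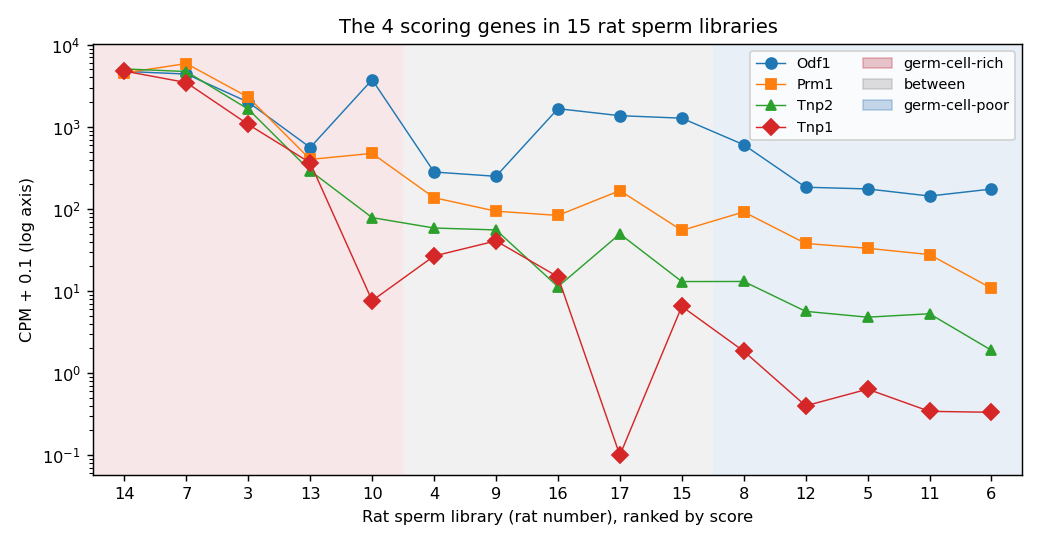
CPM of the 4 scoring genes (log axis, 0.1 added) in each rat sperm library, ordered by score, with the germ-cell-rich, between and germ-cell-poor libraries shaded. Tnp1 drops to 7.53 CPM in rat 10, where Odf1 is at 3752 CPM.

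Depth was similar in both groups, with totals of 46.2 to 58.4 M (1000000) counts in the rich libraries and 42.9 to 65.1 M in the poor ones, and a gene with no count could have stood at up to 0.0461 to 0.0700 CPM (3 counts, counting error only). The rich libraries held 17219 ± 2506 genes (SD, n = 5) at a level of 1 CPM or above, and the poor ones 13362 ± 295 (SD, n = 5). Entries of ribosomal RNA took 1.68 to 9.29% of the counts of rich and 1.90 to 28.9% of those of poor libraries. Library 7 stood apart in having 215 genes with exactly 1 count, against 1036 to 2005 in the other 9, and libraries 16 and 17, which lie between the groups, did so too with 196 and 161. What this bears on was not tested.

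The promoters of 3 genes are shown because they hold a half-site of the motif bound by RFX factors, regulators of ciliary and spermatid genes, whose shares are given below. The runs are the 250 bases before the first start of transcription that RefSeq (GRCr8) lists, 5′ to 3′ on the strand of the gene. Capitals mark the half-site GTTGCC on either strand. Cimip4 (chr7:111825413-111825662, minus strand) and Tekt1 (chr10:57479122-57479371, minus strand) were higher in the rich libraries. Psme2 (chr15:33052752-33053001, minus strand), a proteasome activator subunit, had lower values in every rich library than in any poor one. The starts used need not be the outer end of a gene. The Psme2 run lies wholly inside the annotated gene (33048452 to 33053055). Part of the Cimip4 run, with its half-site, lies inside the annotated Cimip4 gene (111808669 to 111825522).
Cimip4: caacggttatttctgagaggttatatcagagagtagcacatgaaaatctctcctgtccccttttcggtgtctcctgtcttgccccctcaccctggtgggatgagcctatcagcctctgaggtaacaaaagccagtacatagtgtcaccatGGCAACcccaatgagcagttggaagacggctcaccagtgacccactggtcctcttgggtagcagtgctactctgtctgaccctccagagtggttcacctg
Tekt1: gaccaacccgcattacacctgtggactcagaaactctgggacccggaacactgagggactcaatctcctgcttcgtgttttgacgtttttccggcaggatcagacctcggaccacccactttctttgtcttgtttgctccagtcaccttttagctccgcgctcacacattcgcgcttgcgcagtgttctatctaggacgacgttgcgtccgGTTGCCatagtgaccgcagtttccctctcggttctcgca
Psme2: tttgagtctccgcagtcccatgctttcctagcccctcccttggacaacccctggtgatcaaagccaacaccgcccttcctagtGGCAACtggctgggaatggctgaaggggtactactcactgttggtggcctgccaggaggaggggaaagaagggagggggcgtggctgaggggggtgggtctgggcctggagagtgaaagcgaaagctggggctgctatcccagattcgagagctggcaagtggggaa

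A gene was counted as higher or lower when its mean of log2(CPM + 1) differed by at least 2-fold and no library of one group overlapped the other. Of 16629 genes with a mean of at least 1 CPM over the 15 libraries, 2525 were higher in the rich libraries (15.2%) and 3 were lower (0.018%). Of the 2525, 834 differed by 10-fold or more, and their median difference was 2.59 on the log2 scale, against 0.02 over all 16629. The 3 lower genes were Ido1, Cldn7 and Clca2. Without the rule on overlap, 4314 genes were at least 2-fold higher and 262 at least 2-fold lower. The count of higher genes rose to 4197 without rat 10 and was 2094 without rat 7. The count of lower genes rose to 186 without rat 13, 12 without rat 8, 8 without rat 5 and 7 without rat 3. The filter lets a gene in through the rich libraries alone, so these counts describe the 10 libraries chosen and support nothing further.

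The 10 named genes with the largest difference in favour of the rich libraries were mostly genes known from spermatids. Fabp9, a fatty acid binding protein of the sperm head (chromosome 2, 93499136 to 93503267 of GRCr8), stood at 1410, 951, 373, 93.9 and 4.55 CPM in rats 14, 7, 3, 13 and 10 and at 0.417, 0.229, 0.246, 0.424 and 0.210 CPM in rats 8, 12, 5, 11 and 6. The groups did not overlap, but rat 10 was below rats 4, 9, 16 and 15 of the libraries between them. Its difference was 7.21 on the log2(CPM + 1) scale, the largest under the rule. Akap4, an anchoring protein of the fibrous sheath of the tail on chromosome X (18107256 to 18117549), was at 929, 564, 306, 110 and 10.8 CPM in the rich libraries and at 0.215 to 1.77 CPM in the poor ones, a difference of 6.75.

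Adam3a, a member of the ADAM family of sperm surface proteins (chromosome 16, 74002566 to 74052579), was at 663, 557, 284, 85.8 and 2.17 CPM against 0.077 to 0.396 CPM, a difference of 6.73. Cox8c, a testis isoform of a cytochrome c oxidase subunit (chromosome 6, 127793379 to 127794702), was at 644, 796, 245, 48.3 and 1.11 CPM against 0 to 0.187 CPM, a difference of 6.61. In both genes rats 14, 7 and 3 carried most of the group mean and rat 10 lay closer to the poor libraries than to rat 13. Cimip4, a protein of ciliary microtubules (chromosome 7, 111808669 to 111825522), was at 1141, 678, 210, 49.2 and 3.00 CPM against 0.046 to 0.687 CPM, a difference of 6.68.

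Spata20 (chromosome 10, 79924407 to 79932351), a gene of spermatogenesis, was at 1540, 801, 409, 206 and 23.5 CPM against 0.415 to 3.25 CPM, a difference of 6.81. Cmtm2a (chromosome 19, 678154 to 685274) differed by 7.05 and Plaat5 (chromosome 1, 214276553 to 214307600), a phospholipid-modifying enzyme, by 6.63. The remaining 2 genes overlap a neighbour. Fam229b (chromosome 20, 44093492 to 44106871) differed by 6.85 and overlaps Tube1, which itself differed by 1.16, and Gsg1 (chromosome 4, 169822111 to 169838379), a germ-cell gene, differed by 6.53 and overlaps Fam234b, which differed by -0.43. The counting of reads in such overlaps is not given in the sources used here, so these values are uncertain.

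**Figure D2:**
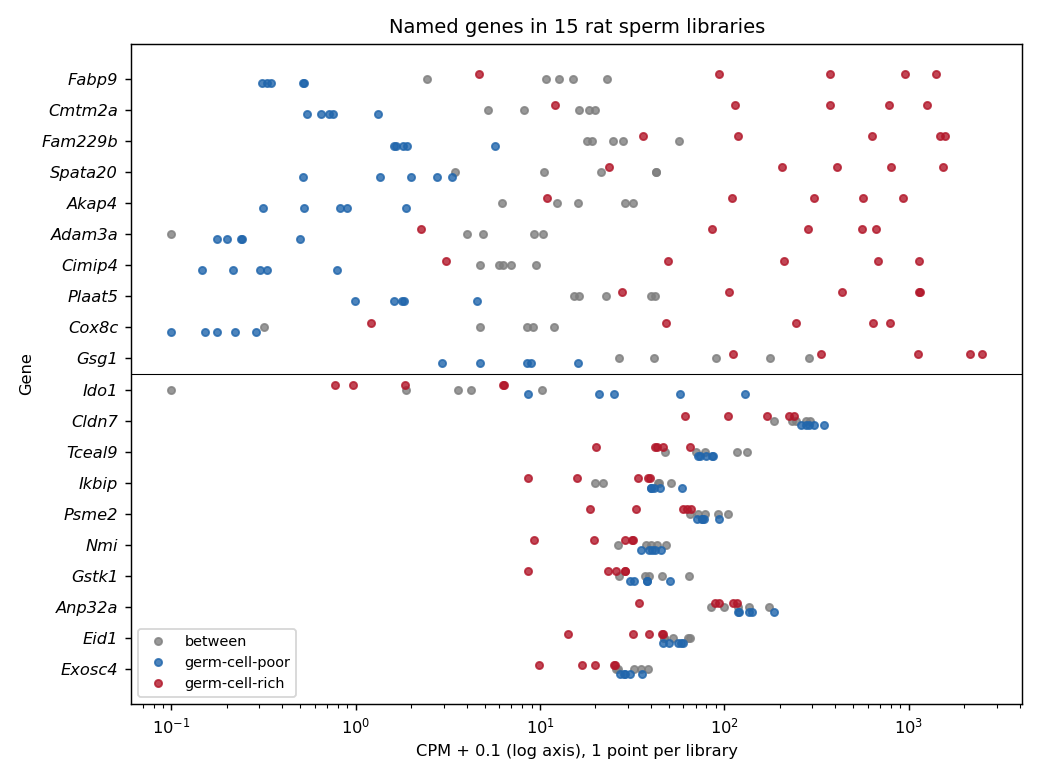
CPM of the named genes (log axis, 0.1 added) in the 15 rat sperm libraries, 1 point per library, with genes higher in germ-cell-rich libraries above the line and genes lower in them below it. The upper genes spread over 1 to 3 steps of 10 within the rich group, and the lower genes other than Ido1 lie close together.

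The 9 lists of germ-line genes held 165 genes, of which 148 were past the filter, and 97 of these (65.5%) were higher in the rich libraries beside 15.2% of all genes. None was lower, and 146 had the higher mean in the rich libraries. The mean log2(CPM + 1) of every one of these lists was without overlap between the groups. By summed level the meiosis and piRNA list did overlap, at 56.8 to 4627 CPM in rich and 40.6 to 69.8 CPM in poor libraries. The listed genes are used by the same cells as the scoring genes, so these counts describe the choice of libraries. Together they took 2.28% ± 1.87 (SD, n = 5) of the counts of the rich libraries and 0.110% ± 0.031 (SD, n = 5) of those of the poor ones.

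Early germ-cell genes were present in the top libraries. Of 12 spermatogonial genes 7 were past the filter, and 2 of these were higher, beside 15.2% of all genes. The list's median difference was 2.51. Its mean log2(CPM + 1) was 2.51 in the rich libraries and 2.30 in male brain, so the listed genes are not confined to germ cells. Kit, a member of the list, stood in rat 10 at 124% of its mean in rats 14, 7 and 3. Dmrtb1, a transcription factor of spermatogonia, was at 157, 158, 77.6, 20.5 and 1.63 CPM in rats 14, 7, 3, 13 and 10 and at 0.015 to 0.373 CPM in the poor libraries. Ddx4, the germ-cell RNA helicase, was at 216, 145, 67.1 and 21.7 CPM in the first 4 rats, but rat 10 at 1.37 CPM overlapped the poor range of 0.271 to 1.52 CPM. Uchl1, a ubiquitin hydrolase also abundant in neurons, was at 7.14 to 82.6 CPM against 2.17 to 4.21 CPM.

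Of 20 genes of meiosis and of the piRNA pathway, which silences transposons in germ cells, 8 were higher, beside 15.2% of all genes. The list's median was 3.29. Ybx2, a protein that stores messages in germ cells, was at 1205, 689, 237, 186 and 10.3 CPM against 1.11 to 2.98 CPM. Mael, a piRNA factor, was at 707, 257, 139, 71.5 and 0.793 CPM against 0 to 0.047 CPM. Sycp3, a core protein of the synaptonemal complex, was at 101, 104, 21.1 and 8.83 CPM in rats 14, 7, 3 and 13, while rat 10 at 0.107 CPM lay inside the poor range of 0.061 to 0.247 CPM. Hspa2, a chaperone of spermatocytes, was at 1038, 961, 358 and 141 CPM in the same 4 rats and at 2.44 CPM in rat 10, below every poor library (5.83 to 29.6 CPM). In the 4 genes named here the high levels thus belonged to rats 14, 7, 3 and 13. Not all of the list was so. In rat 10, 4 of the 20 genes stood at 25% or more of their mean in rats 14, 7 and 3, with Msh5 highest at 62.4%.

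The genes of nuclear condensation were the most uniform list, with 8 of 8 past the filter higher, beside 15.2% of all genes. Their median was 5.90. Prm2, the second protamine, was at 672, 773, 293, 68.1 and 18.1 CPM against 0.538 to 3.44 CPM. Prm3 was at 433, 777, 164, 28.1 and 12.6 CPM against 0.404 to 1.92 CPM. H1f7, a linker histone of spermatids, was at 574, 250, 119, 54.1 and 3.32 CPM against 0.093 to 0.750 CPM. Spem1, a factor for the removal of spermatid cytoplasm, was at 489, 647, 227, 48.0 and 21.8 CPM against 1.08 to 3.27 CPM.

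In the acrosome and fusion list 18 of 26 genes were higher (beside 15.2% of all genes), with a median of 3.82. Crisp2, an acrosomal and tail protein, was at 1735, 1174, 701, 232 and 95.2 CPM against 2.27 to 15.0 CPM. Izumo1, the sperm ligand in fusion with the egg, was at 82.2, 59.0, 18.0, 6.88 and 0.407 CPM against 0 to 0.047 CPM. Pdcl2 was at 389, 484, 154, 31.4 and 1.35 CPM against 0.040 to 0.141 CPM. Acrbp, which binds proacrosin, was at 330, 287, 131, 100 and 13.3 CPM and overlapped the poor range of 11.2 to 54.0 CPM. Spam1, the sperm hyaluronidase, had 0 counts in all 5 poor libraries and in rat 10, and 8.32 to 104 CPM in the other 4.

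Of 20 tail genes, 15 were higher (beside 15.2% of all genes), with a median of 4.85. Odf2, a second dense fibre protein, was at 3540, 4083, 1731, 468 and 166 CPM against 21.1 to 52.5 CPM. Oaz3, the testis antizyme that tempers polyamine synthesis, was at 4900, 3672, 1826, 568 and 1857 CPM against 72.8 to 341 CPM. Smcp, a cysteine-rich protein of the mitochondrial sheath, was at 2969, 1867, 1128, 319 and 3510 CPM against 96.2 to 443 CPM, and rat 13 fell inside the poor range. In Smcp rat 10 was the highest of all 15 libraries. Ropn1l, a protein of the radial spoke and fibrous sheath, went the other way, with 2313, 1876, 633 and 139 CPM in rats 14, 7, 3 and 13 and 11.0 CPM in rat 10.

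Axonemal genes, which build the beating core of the tail, were higher in 19 of 28 cases, beside 15.2% of all genes. Their median was 3.85. Tekt1, a tektin inside the outer microtubule doublets, was at 268, 229, 120, 26.8 and 2.19 CPM against 0.875 to 1.52 CPM. Meig1, a scaffold for cargo in the growing tail, was at 330, 177, 106, 27.0 and 1.26 CPM against 0.088 to 0.292 CPM. Rsph9, a radial spoke protein of other motile cilia as well, was at 151, 160, 75.7, 36.9 and 20.7 CPM and overlapped the poor range of 21.7 to 44.0 CPM.

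Of 13 germ-cell isoforms of energy metabolism 11 were higher (beside 15.2% of all genes), with a median of 5.45. Gapdhs, the sperm form of a glycolytic dehydrogenase, was at 1386, 733, 466, 184 and 59.1 CPM against 1.95 to 9.46 CPM. Ldhc, the sperm lactate dehydrogenase, was at 765, 521, 238, 74.7 and 2.64 CPM against 0.092 to 1.23 CPM. Pgk2, the phosphoglycerate kinase that replaces its X-linked relative, was at 536, 547, 262, 68.5 and 69.5 CPM against 4.85 to 16.1 CPM. For Pgk2 rats 13 and 10 were level, whereas for Ldhc they differed widely.

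Among 14 genes of the CatSper calcium channel and of sperm pH control, 11 were higher, beside 15.2% of all genes. Their median was 3.02. Catsperg, an accessory channel subunit, was at 326, 235, 108, 50.9 and 44.2 CPM against 4.09 to 10.3 CPM. Catsper2, a pore subunit, was at 112, 156, 55.6, 16.2 and 3.07 CPM and overlapped the poor range of 2.26 to 3.79 CPM. Catsperz was at 186, 225, 101, 19.6 and 2.87 CPM against 3.12 to 11.3 CPM, with rat 10 below every poor library.

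Of 12 spermatid kinase, phosphatase and transcription genes 5 were higher (beside 15.2% of all genes), with a median of 3.10. Tssk6, a kinase of late spermatids, was at 691, 985, 326, 77.8 and 125 CPM against 14.2 to 31.5 CPM. Rfx2, a transcription factor of spermatids, was at 210, 102, 55.3, 31.2 and 2.74 CPM against 0.545 to 1.66 CPM. Crem, whose testis form activates post-meiotic genes, was at 74.7 to 175 CPM against 69.1 to 179 CPM, so the gene-level count showed no separation. Ppp1cc, a phosphatase gene with a testis splice form, was at 249 to 749 CPM against 164 to 259 CPM. Splice forms cannot be told apart in counts per gene.

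**Figure D3:**
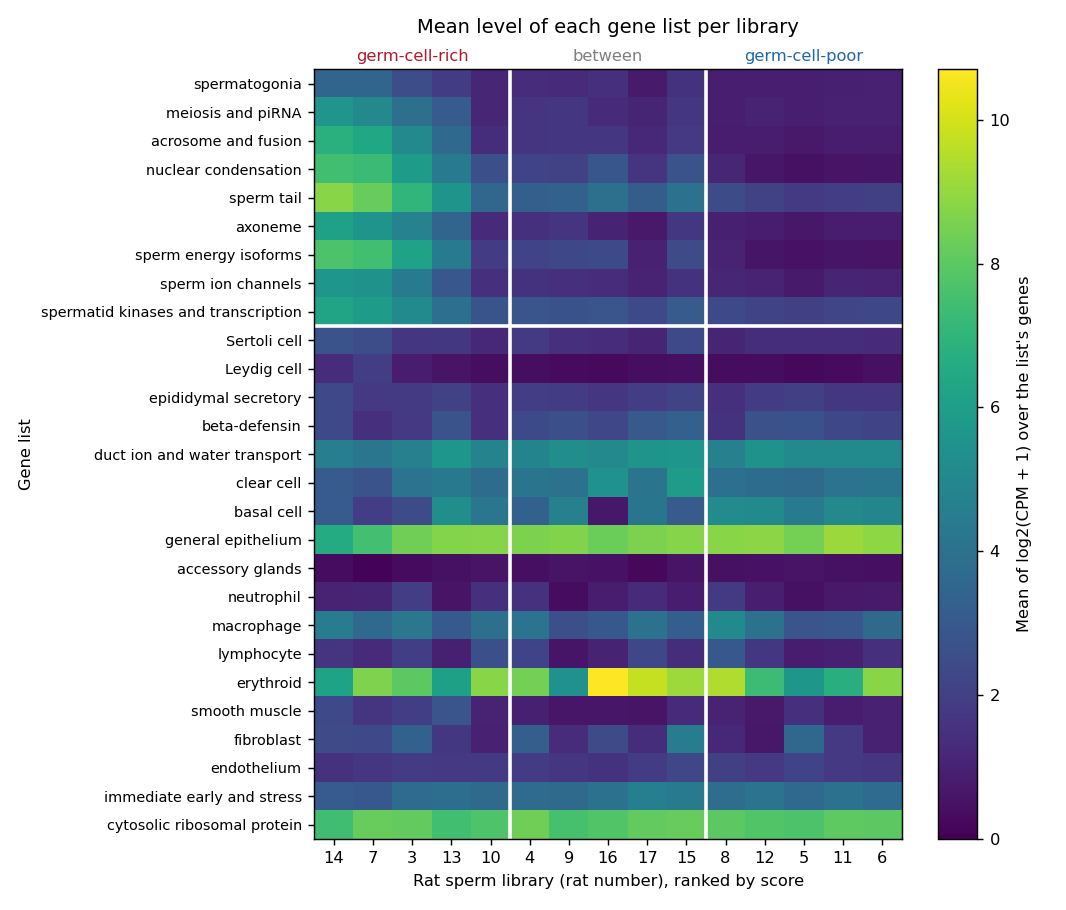
Mean of log2(CPM + 1) of each gene list (rows) in each of the 15 rat sperm libraries (columns, ordered by score). The 9 germ-line lists above the horizontal line are highest in rats 14 and 7 and low in rat 10, while most somatic lists below it are not.

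Library 10 was set beside the other rich libraries, after the values had been seen, over 386 genes. These were higher in the rich libraries and below 1 CPM on average in brain and in ovary. The rule on overlap leaves out genes in which rat 10 or rat 13 fell into or below the poor range, as in Hspa2 and Smcp. The percentages of both rats are cut by that rule. Each of the 386 genes had a mean of at least 50 CPM in rats 14, 7 and 3. Each gene's level was expressed as a percentage of its mean in those 3 rats. In rat 13 the percentages lay close together, with a median of 12.5% and the 10th and 90th percentiles at 7.20 and 20.5%. In rat 10 the median was 1.05% and the percentiles were 0.212 and 10.3%. A total of 16 genes reached 25% and 186 were below 1% in rat 10.

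Among these 386 genes, the highest in rat 10 were Ptp4a2l1 at 66.0%, Tppp2 at 56.3%, Oaz3 at 53.6%, Smim47 at 50.7% and Apool2 at 48.3% of the top 3. Dnajb8, a chaperone of the DnaJ family, was at 34.9%. Tppp2, a tubulin-associated protein of sperm, was at 120, 237, 65.8, 12.6 and 79.2 CPM in rats 14, 7, 3, 13 and 10. Tppp2 was thus higher in rat 10 than in rats 3 and 13. At the other end were Actrt1, an actin-related protein of the sperm head, at 0.040%, Fhl5, a co-activator of CREM, at 0.042%, Adad1 at 0.059% and Tdrd6, a protein of the chromatoid body, at 0.082%. Fhl5 was at 458, 234, 79.5, 24.0 and 0.107 CPM in the same order of rats.

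On the same scale the libraries between the groups also varied. In rats 4 and 9 the percentages were narrow, with medians of 1.36 and 1.72%, 10th percentiles of 0.796 and 0.967% and 90th percentiles of 2.38 and 2.69%. In rats 16 and 15 they were wide, with medians of 1.67 and 1.56% and 90th percentiles of 12.4 and 8.93%. The 10 genes highest in rat 10 had medians of 30.2% in rat 16, 26.9% in rat 15 and 16.3% in rat 17, but 3.83% in rat 4 and 3.38% in rat 9. The 10 genes lowest in rat 10 had medians of 1.95% in rat 16, 0.742% in rat 15 and 0% in rat 17. Libraries 16 and 17 hold few low counts, as given above, and the part of this in their low values was not tested. Library 15 had 1396 genes with exactly 1 count. The 386 genes were chosen through the rich libraries and the sets of 10 by rat 10 itself, so these percentages are a description of the libraries and were not tested.

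**Figure D4:**
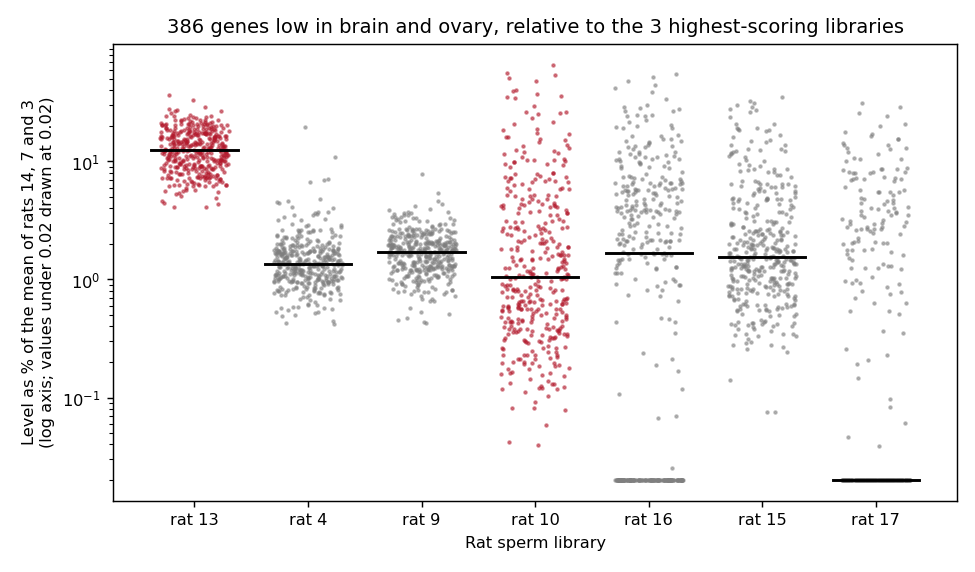
Level of each of 386 genes as a percentage of its mean in rats 14, 7 and 3 (log axis, values under 0.02 drawn at 0.02), 1 point per gene and a bar at the median, with germ-cell-rich libraries in red and libraries between the groups in grey. Rats 13, 4 and 9 form narrow bands, whereas rats 10, 16, 15 and 17 spread over more than 2 steps of 10.

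Some other features of the genes higher in the rich libraries were also counted. Of the 2525, 61.2% were below 1 CPM on average in both male brain and ovary, against 6.87% of the other 14104 genes tested. Long non-coding RNAs made up 31.6% of them and 7.89% of the others. The share on chromosome X was alike, at 3.41 and 3.48%, and that on chromosome Y was 0.673 and 0.0993%. Of the 31 tested genes of chromosome Y, 17 were among the higher ones, beside 15.2% of all genes. All 17 had placeholder symbols and are possibly near-identical copies. These shares describe genes of one contrast and share its selection. The filter can let in a gene that is low in other tissues through the rich libraries alone. The shares are therefore partly set by the choice of libraries and genes.

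Promoters were compared over 300 bases, from 250 before to 50 after the start, using the first start that RefSeq lists for each gene. That start can lie inside the annotated gene, as for Psme2 and Cimip4. Promoters were found for 2080 of the 2525 higher genes and 11554 of the others. Both strands were searched for 6 motifs, and shorter ones overlap longer ones, as TGACG does TGACGTCA. GTTGCC was in 17.8% of promoters of higher genes, 12.6% of those of other tested genes and 12.2% of all 27457 promoters. TATAAA was in 12.6, 7.73 and 14.3%, and CCAAT in 39.4, 37.9 and 37.7%. TGACGTCA, the full cyclic AMP response element, was in 2.69, 3.00 and 1.91%, the related TGACGCA in 1.44, 3.32 and 2.09%, and TGACG in 22.3, 30.2 and 22.0%. Median GC content was 51.3, 59.7 and 52.3%, and the part of GC content in the motif shares was not tested.

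With all 10 libraries 3 genes were lower in the rich group, a count that rose to 186 without rat 13. Ido1, which breaks down tryptophan and is induced by interferon (chromosome 16, 74133259 to 74145328), was at 1.75, 0.671, 0.864, 6.27 and 6.17 CPM in rats 14, 7, 3, 13 and 10 and at 8.50, 130, 25.2, 20.8 and 57.5 CPM in rats 8, 12, 5, 11 and 6. Its difference was -3.30, and the poor values themselves spanned more than 10-fold. Cldn7, a tight junction protein of epithelia (chromosome 10, 55188670 to 55190871), was at 60.9, 104, 169, 239 and 223 CPM against 277, 287, 260, 347 and 307 CPM, a difference of -1.05. Clca2, named outside the rule as the third of 3, was at 0.736 to 2.86 CPM against 3.72 to 8.02 CPM, a difference of -1.46.

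The other genes named by the rule were under 2-fold. Tceal9 differed by -0.95, Ikbip by -0.89, Psme2 by -0.83, Nmi, an interferon-induced adaptor, by -0.83, Gstk1, a mitochondrial glutathione transferase, by -0.78, Anp32a by -0.74, Eid1, which overlaps Shc4, by -0.70 and Exosc4, which overlaps Oplah, by -0.68. In each of these 8 genes rat 14 was the lowest of the 5 rich libraries. Rat 14 and rat 7 were also the lowest in the epithelial list below.

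The 18 lists of somatic and general genes held 206 genes past the filter, of which 5 were higher (2.43%, beside 15.2% of all genes) and 1 was lower. Epithelial and tract lists overlapped between the groups in their means. Of 8 general epithelial genes 1 was lower (Cldn7), beside 0.018% of all genes, and the median was -0.81. Krt8, a keratin of simple epithelia, was at 154, 306, 499, 777 and 1103 CPM in the rich and 527 to 1017 CPM in the poor libraries. Epcam, an epithelial adhesion molecule, was at 144, 293, 517, 526 and 547 CPM against 543 to 862 CPM. The summed level of the list was 839 to 4003 CPM in rich and 3073 to 4776 CPM in poor libraries. The low values belonged to rats 14, 7 and, in part, 3, the libraries with the most germ-cell RNA.

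Of 5 basal cell genes none was higher or lower, with a median of -1.50. Without the rule on overlap all 5 were at least 2-fold lower, beside 262 of all 16629 genes. Krt5 was at 16.9, 5.04, 7.74, 113 and 39.3 CPM in the rich and at 48.0 to 80.6 CPM in the poor libraries. Krt14 was at 2.16 to 52.5 CPM against 26.2 to 38.6 CPM and Krt15 at 5.91 to 65.0 CPM against 29.2 to 71.7 CPM. Of 8 clear cell genes, which acidify the duct, none was either (median -0.70), and Foxi1, their transcription factor, was at 2.40 to 28.9 CPM against 12.6 to 18.7 CPM. In the means of both lists rat 13 was above every poor library, as it was in all 9 germ-line lists.

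Secreted products of the epididymis varied between rats of either group. Of 11 secretory genes past the filter 1 was higher, beside 15.2% of all genes. It was Cst8, a cystatin also made by germ cells, at 273, 237, 64.3, 14.0 and 0.879 CPM against 0 to 0.167 CPM. The list's median was 0.08 (-0.34 to 0.28 with 1 library left out). Serpina1f was at 2832, 10542, 16790, 19188 and 32887 CPM against 11150 to 30870 CPM. Serpina16 was at 4659, 143, 478, 32375 and 1839 CPM against 4741 to 33864 CPM. Of 28 beta-defensins 2 were higher (Defb33 and Defb14), a smaller share than the 15.2% of all genes, and the median was -0.80. With overlap ignored, 12 of the 28 were at least 2-fold lower and 6 at least 2-fold higher, beside 262 and 4314 of all 16629 genes. Defb28 was at 159, 9.42, 85.2, 747 and 179 CPM in the rich libraries and at 163 to 669 CPM in the poor ones, and Defb10 at 6.21 to 480 CPM against 60.9 to 653 CPM.

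Of 7 duct transport genes 1 was higher, a count near the 15.2% of all genes. It was Cftr, the chloride channel, at 28.6, 18.9, 3.73, 1.24 and 2.40 CPM against 0.083 to 0.338 CPM. The median was -0.78. Aqp2, a water channel, was at 2111, 9023, 13548, 8367 and 18528 CPM against 7699 to 22099 CPM, so epithelial RNA was abundant in every library. Accessory gland genes were near absent, with a summed level of 0.909 to 9.30 CPM in rich and 5.75 to 10.2 CPM in poor libraries. Seminal fluid, as the labels have it, thus came with little RNA of the seminal vesicle genes listed.

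Somatic cells of the testis were looked for because germ cells that have not left it are mixed with them. Of 7 Sertoli cell genes past the filter 1 was higher, Cldn11, a tight junction protein, at 32.3, 26.9, 6.15, 3.64 and 2.51 CPM against 1.27 to 2.01 CPM, and the list's median was 1.17. This count of 1 in 7 is near the 15.2% of all genes that were higher. Wt1 was at 11.1, 21.1, 3.55, 1.50 and 0.322 CPM against 0.141 to 2.43 CPM, and Gata4 at 4.64, 4.91, 0.519, 0.540 and 0.150 CPM against 0 to 0.182 CPM. The summed level of the Sertoli list was 38.7 to 103 CPM in rich and 26.7 to 50.9 CPM in poor libraries. Fshr, the receptor that defines Sertoli cells, was at 0.565 CPM at most.

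Of the 7 Leydig cell genes only Cyp11a1 was past the filter, and it was neither higher nor lower. Insl3, a Leydig cell hormone, was at 1.04, 4.22, 0.634, 0.313 and 0.107 CPM against 0 to 0.327 CPM, and Cyp17a1, a steroid enzyme, at 0.925, 2.29, 0.173, 0.209 and 0 CPM against 0 to 0.070 CPM. The list summed to 3.54 to 22.3 CPM in rich and 1.57 to 4.74 CPM in poor libraries. By the mean of log2(CPM + 1), rats 14 and 7 had the most of both lists. By summed level, a library between the groups had 116 CPM of the Sertoli list, more than any rich library. The part of testis tissue in the contrast was not tested.

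Other somatic lists had no gene that was higher or lower. Their medians were 0.92 for 5 smooth muscle genes, 0.66 for 5 fibroblast genes, 0.50 for 5 neutrophil genes, -0.03 for 12 macrophage genes, -0.05 for 8 lymphocyte genes, -0.03 for 7 erythroid genes and -0.28 for 3 endothelial genes. The macrophage, lymphocyte, erythroid and endothelial medians changed sign with 1 library or another left out. Erythroid genes summed to 2565 to 27005 CPM in rich and 2041 to 36928 CPM in poor libraries, so blood RNA was present in both groups. Immediate early and stress genes had a median of -0.55 over 9 and cytosolic ribosomal protein genes -0.10 over 75.

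The brains of the same 10 rats were compared because their libraries took no part in the choice. Their totals were 38.2 to 54.6 M counts. By edgeR's quasi-likelihood test, 0 of 20783 genes (0%) passed an adjusted p of 0.05, and 290 (1.40%) had an unadjusted p under 0.05. The smallest adjusted p was 0.9999, the median standard error of a log2 fold change was 0.145, and DESeq2 also called 0, with 498 at an unadjusted p under 0.05. A p that misses the threshold does not show that the brains were alike.

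The 3 genes of smallest p were Prkar1b, Irf7 and Fam133bl1. Prkar1b, a regulatory subunit of protein kinase A in neurons, was at 506, 541, 510, 564 and 589 CPM in the brains of rats 14, 7, 3, 13 and 10 and at 296, 536, 251, 270 and 287 CPM in those of rats 8, 12, 5, 11 and 6. Only the brain of rat 12 overlapped the other group. Prkar1b differed by 0.72 ± 0.172 (SE) on the log2 scale with an edgeR adjusted p of 0.9999, and by 0.95 with an edgeR adjusted p of 0.005979 without rat 12, the only alternative run that called a gene. Over the brains of the 5 rats between the groups Prkar1b ran from 18.8 to 250 CPM, and the female brains from 9.16 to 628 CPM, so this gene varied strongly between rats of no sperm grouping as well.

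Irf7, a regulator of the interferon response, was at 4.54 to 15.6 CPM against 2.84 to 4.50 CPM and differed by 1.05 ± 0.282 (SE). Fam133bl1 was at 0.162 to 0.246 CPM against 0.243 to 0.543 CPM and differed by -1.02 ± 0.277 (SE). Neither passed, both with an edgeR adjusted p of 0.9999. Genes of the reproductive axis were also without a call. Esr1, an oestrogen receptor, differed by 0.33 ± 0.177 (SE), Kiss1r, the kisspeptin receptor, by 0.08 ± 0.183 (SE) and Cga, the common subunit of glycoprotein hormones, by -2.47 ± 1.23 (SE), all with an edgeR adjusted p of 0.9999.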

How the data were processed

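RNA-seq was made from rat sperm, brain and ovary. Per the labels, rat RNA was extracted with a Zymo kit and made into stranded mRNA libraries with a Watchmaker kit, reads were trimmed with Trimmomatic 0.39, aligned with STAR 2.7.5a to GRCr8 and counted with Rsubread 2.20.0 in R 4.4.2. The authors deposited raw counts per gene, not normalized. Whether counting used strand, and how it treated reads shared by several genes, is not given here.

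From these counts CPM on plain totals was computed with Python 3.11.15 and pandas 2.3.3, and the 15 sperm libraries were ranked by the mean log2(CPM + 1) of 4 genes, which were then left out. Genes needed a mean of 1 CPM. Group differences are differences of mean log2(CPM + 1), which understate the change of low genes. The sperm contrast was not tested, since the libraries were selected on it. Brains of the same rats, matched by the rat number in the labels, were tested with edgeR 4.0.16 (TMM, filterByExpr, quasi-likelihood, Benjamini-Hochberg over all genes) and, as an alternative, DESeq2 1.42.0. The edgeR fit and the sperm description were each run on simulated counts, and DESeq2 was not. Nothing in the labels says more of the replicates than the rat number, so p-values measure the spread between these libraries.

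The rule for named genes took, on each side, the 10 largest differences among genes with a mean of 10 CPM in the higher group, no overlap and no placeholder symbol, the 3 members of each list with the highest mean, and the 3 brain genes of smallest p. Of the somatic lists, these members are given only in part. Other list members were named as examples after their values were seen. Members and gene lists were chosen with earlier results of these data known. Of 38675 genes, 38585 matched the RefSeq annotation of GRCr8. Fabp9, Adam3a, Plaat5, Gsg1, Ido1, Eid1 and Exosc4 had no promoter entry. Alternatives covered scaling, pseudocount, filter, group size, scoring genes and leaving out each library. Sheep libraries were not used here.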

Additional observations from a re-analysis of the deposited data

Results flagged for a closer look

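Within groups of 5 libraries, 8 of 98 sets of values had an end library whose gap to its neighbour, over the range, exceeded 0.71, Dixon's critical value. Here the ratio served only to flag values and not as a test. The libraries were picked as the ends of a ranking and the sets share libraries, so no chance rate applies to this count.

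In the poor group 4 of them were rat 8, the library nearest the middle. Its mean log2(CPM + 1) was 1.15 for the nuclear condensation list, against 0.50 to 0.64 in the other 4, and 1.01 for the sperm energy isoforms, against 0.52 to 0.60. Its log2(CPM + 1) of Fam229b was 2.73, against 1.33 to 1.48, and that of Adam3a was 0.48, against 0.11 to 0.19.

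In the rich group rat 14 was low for Gstk1, at 3.25 against 4.60 to 4.90, and for Anp32a, at 5.15 against 6.49 to 6.89. In the poor group rat 11 was high for Ikbip, at 5.91 against 5.35 to 5.51. Entries of ribosomal RNA took 28.9% of the counts of rat 5 (95% Wilson interval 28.85 to 28.87%, counting error only), against 1.90 to 9.12% in the other poor libraries.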

How the results depend on the processing

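The number of higher genes, 2525, was within 1.5 times under TMM scaling, totals without rRNA entries, a smaller pseudocount, a minimum mean of 0.1 CPM or none, a 4-fold threshold, a score without any 1 of the 4 genes, a score from the sperm tail list and ranking without rats 16 and 17. It was 907 with a minimum of 10 CPM, 4215 with 4 against 4 libraries, 392 with 7 against 7, and 2075 to 4197 with 1 library left out, the highest without rat 10. The number of lower genes, 3, was 19 with 4 against 4, 0 with 7 against 7, 1 with the tail-list score and 1 at 4-fold, and 2 to 186 with 1 library left out (186 without rat 13, 12 without rat 8, 8 without rat 5 and 7 without rat 3). The cause was not tested. The 10 libraries chosen were the same under every score except the tail-list score, which put rat 15 in place of rat 10.

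With 1 library left out, the medians of the 9 germ-line lists stayed between 1.96 and 6.63. The median of the endothelial list was -0.47 to 0.046 and that of the epididymal secretory list -0.34 to 0.28. Medians also changed sign for the macrophage (-0.29 to 0.36), lymphocyte (-0.36 to 0.31) and erythroid (-0.58 to 0.48) lists. With 7 against 7 libraries Cmtm2a, Fam229b, Spata20, Akap4, Plaat5 and Gsg1 differed by 4.13 to 5.10. Genes called in brain numbered 0 to 1 with 1 library left out and 0 under the other alternatives. No paired analysis was possible because the rich and poor groups hold different rats. By counting error alone, depth limits genes near 0.0461 to 0.0700 CPM, the level of 3 counts. Library 7 had 215 genes with exactly 1 count, against 1036 to 2005 in the other rich and poor libraries. Its limit may therefore be another, which was not tested.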

Other observations

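Further sets were put together after their values had been seen. Genes induced by interferon gamma had lower means in the rich libraries, except Gbp2, mostly with overlap. B2m, the light chain of class I molecules, was at 425, 837, 1204, 1597 and 1598 CPM in rats 14, 7, 3, 13 and 10 and at 1380 to 1975 CPM in the poor libraries (log2 difference -0.77), and Psmb10, an immunoproteasome subunit, at 18.2 to 34.3 CPM against 35.6 to 46.6 CPM (-0.56) without overlap. As in the epithelial genes, rats 14 and 7 were low and rats 3, 13 and 10 nearer the poor libraries for B2m.

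Some tract genes moved together from rat to rat in either group. Ltf, the iron-binding lactoferrin, was at 208, 2.21, 12.8, 822 and 45.4 CPM in rats 14, 7, 3, 13 and 10 and at 159, 808, 635, 390 and 276 CPM in rats 8, 12, 5, 11 and 6. Rnase12 was at 86.6, 3.83, 15.4, 363 and 29.3 CPM and at 51.8, 374, 397, 197 and 150 CPM. Srd5a2, which makes dihydrotestosterone, was at 46.8, 1.45, 11.2, 236 and 23.1 CPM and at 31.4, 249, 164, 111 and 91.8 CPM. In all 3 genes rat 13 was the highest and rat 7 the lowest rich library, and rat 8 the lowest poor one.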
